A study of Rattus norvegicus with 32 samples.

Results

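The S100 genes encode small calcium-binding proteins, and 10 of them (S100a1, S100a4, S100a6, S100a8, S100a9, S100a10, S100a11, S100a13, S100a16 and S100b) were followed in liver sinusoidal endothelial cells (LSECs) of rats with toxic liver injury. They were picked by symbol among the 32623 genes listed in each library, and all 10 were found. Their expression was read from 32 RNA sequencing libraries, 22 of a carbon tetrachloride (CCl4) model and 10 of a thioacetamide (TAA) experiment. Male Wistar Han rats inhaled CCl4, a hepatotoxin, for 2 weeks (n = 5), for 6 weeks (n = 5) or until cirrhosis at 12 to 14 weeks (n = 6), and untreated rats (n = 6) were the healthy group. Drinking water in the CCl4 model held phenobarbital, and whether the healthy rats drank it too is not given in the sources used here. LSECs were taken some days after the last toxicant by perfusion, digestion and an iodixanol density gradient without an antibody sort, so each library is a cell fraction that can hold other liver cells. The labels of the TAA experiment name a control group (n = 5) and a TAA control group (n = 5), while the study describes saline-treated and TAA-cirrhotic Sprague-Dawley males, and the labels give Wistar Han for all. Which of these groups received TAA was not settled, and they are called here by their labels.

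S100 proteins carry a pair of EF-hand loops, usually work as dimers, and on binding calcium expose a surface that grips a target protein. Inside cells they act on annexins, myosin and other cytoskeletal or trafficking proteins. Several are also released without a signal peptide, and S100A8 and S100A9 are known as alarmins that engage RAGE (Ager) and TLR4 on neighbouring cells, the endothelium among them. LSECs are the fenestrated, strongly endocytic endothelium of the liver, and they sit beside Kupffer cells and infiltrating leukocytes, which are themselves known for S100A8, S100A9 and S100A4.

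Of the 10 genes, 9 lie on chromosome 2 and S100b on chromosome 20 in the RefSeq annotation of the rat assembly GRCr8. S100a1, S100a13, S100a14 and S100a16 follow each other in the order of genes, then come S100a4, S100a5 and S100a6, and S100a8 and S100a9 stand side by side. S100a11 and S100a10 lie apart from that row, with 79 other genes between. Promoter sequences of 300 bases, 250 before the start site and 50 from it, were matched by symbol for 7 of the 10 genes, without S100a1, S100a8 and S100a10. Those of S100a13 and S100a16 are shown because these neighbouring genes had similar courses over the CCl4 groups, and those of S100a4 and S100a9 because they hold a TATA box and belong to genes with other profiles. They run 5′ to 3′ on the strand of the gene, from RefSeq in GRCr8, at chr2:178296770-178297069 (+) for S100a13, chr2:178313736-178314035 (+) for S100a16, chr2:178388279-178388578 (+) for S100a4 and chr2:178490573-178490872 (-) for S100a9, and capitals mark matches to the motifs searched.
S100a13: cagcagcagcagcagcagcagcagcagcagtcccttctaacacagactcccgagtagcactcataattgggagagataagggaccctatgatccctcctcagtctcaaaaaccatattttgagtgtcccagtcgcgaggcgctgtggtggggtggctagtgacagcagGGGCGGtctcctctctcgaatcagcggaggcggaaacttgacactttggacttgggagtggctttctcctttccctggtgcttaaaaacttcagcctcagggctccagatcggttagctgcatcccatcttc
S100a16: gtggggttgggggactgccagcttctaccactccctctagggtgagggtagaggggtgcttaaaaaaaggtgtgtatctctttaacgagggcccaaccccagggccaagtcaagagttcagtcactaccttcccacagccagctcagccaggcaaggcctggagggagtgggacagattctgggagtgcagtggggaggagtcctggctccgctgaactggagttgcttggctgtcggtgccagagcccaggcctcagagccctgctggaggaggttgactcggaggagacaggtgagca
S100a4: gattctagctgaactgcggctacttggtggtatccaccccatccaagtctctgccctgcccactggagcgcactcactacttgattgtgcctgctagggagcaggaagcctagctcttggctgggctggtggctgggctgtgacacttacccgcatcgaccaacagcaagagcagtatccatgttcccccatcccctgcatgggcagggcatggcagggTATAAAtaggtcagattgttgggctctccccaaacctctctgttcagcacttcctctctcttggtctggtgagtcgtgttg
S100a9: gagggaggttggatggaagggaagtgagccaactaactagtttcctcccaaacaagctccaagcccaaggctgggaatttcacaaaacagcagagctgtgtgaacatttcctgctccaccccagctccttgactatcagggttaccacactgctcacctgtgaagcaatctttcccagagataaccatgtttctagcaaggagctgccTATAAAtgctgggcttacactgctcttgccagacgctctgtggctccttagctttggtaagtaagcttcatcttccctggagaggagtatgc

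The motifs were searched on both strands, and a match is only a description. TATAAA was found in S100a4, 31 bases before the start site, and in S100a9, 42 bases before it, against 14.2% of 33469 promoters of the same length. GGGCGG was found in S100a6, S100a11 and S100a13, against 33.1% of all promoters. TGANTCA (AP-1), TTGCNNAA (C/EBP) and the NF-kappaB motif were in 0 of the 7 sequences, and in 7.33%, 10.6% and 0.362% of all promoters. S100a16 held none of the 5 motifs in this window.

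Values are given as CPM, the counts of a gene relative to the size of its library, scaled with TMM factors over the libraries of one experiment. They are not divided by transcript length, so levels are compared between groups and not between genes. Gene tests used limma-voom with Benjamini-Hochberg adjustment over all genes tested, a gene was called at an adjusted p under 0.05 with a fold above 1.5, and all adjusted p-values below come from that fit unless another test is named. Library totals ranged from 25646531 to 46464289 counts. The sources do not say which rats were handled together, so a processing batch and the group cannot be told apart. On the first principal component of the CCl4 libraries, which held 69.7% of the variance, the healthy and cirrhotic libraries lay on one side and the 2-week and 6-week libraries on the other, with scores of -137 to -55.9 and 87.6 to 122.

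The cell fraction differed between these groups as well, by lists of marker genes of liver cells. The summed level of 11 LSEC markers was 17300 to 32700 CPM in healthy libraries and 15900 to 20700 CPM in cirrhosis, but 2210 to 2950 CPM at 2 weeks and 1570 to 2570 CPM at 6 weeks. The 6 pan-endothelial markers present in the files summed to 9630 to 16100 CPM in healthy libraries, 2780 to 4050 CPM at 2 weeks, 2250 to 2780 CPM at 6 weeks and 5730 to 7290 CPM in cirrhosis. Of the LSEC markers, 10 of 11 were called lower at 2 weeks and 11 of 11 at 6 weeks, and 11 of 11 were higher in cirrhosis than at 6 weeks. Of all genes tested, 37.9% were called lower at 2 weeks, 34.9% lower at 6 weeks and 34.3% higher from 6 weeks to cirrhosis. Macrophage and monocyte markers (12 in the files) summed to 374 to 4060 CPM in healthy libraries, 84.7 to 249 at 2 weeks, 37.3 to 234 at 6 weeks and 911 to 3230 in cirrhosis. Lymphocyte markers (10) summed to 15.5 to 215, 0.53 to 2.45, 2.36 to 19.4 and 14.2 to 35 CPM in the same order of groups, and hepatocyte markers (8) to 733 to 17600, 87.1 to 778, 1010 to 4230 and 1660 to 11100 CPM. Macrophage, lymphocyte and LSEC markers were thus low together in both intermediate groups. Stellate cell and fibroblast markers (9) summed to 283 to 784 CPM in healthy libraries and 616 to 1910 CPM in cirrhosis, with 1310 to 2130 CPM at 2 weeks and 1300 to 1750 CPM at 6 weeks. That sum was carried by Reln at 2 and 6 weeks (medians 1650 and 1440 CPM, against 170 in health). Of the 8 markers tested 5 were lower and 1 higher at 2 weeks, and 3 lower and 3 higher at 6 weeks. These counts stand beside 73.4% and 70.2% of all genes called at the same stages. In cirrhosis 7 of 9 were higher, where 27.1% of all genes tested were called higher. Cholangiocyte markers (5) reached at most 26.5 CPM, mesothelial markers (4) at most 89.2 CPM, both in healthy replicate 1, and Schwann cell markers (4) at most 4.72 CPM in the CCl4 libraries. In such bulk libraries fewer cells of a type and less RNA per cell cannot be told apart, and the part of these lists in the results below was not tested.

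After 2 weeks of CCl4, 6 of the 10 S100 genes were called lower and 0 higher than in healthy LSECs, with 7 tested, where 73.4% of all genes tested were called and 37.9% called lower. The median log2 fold change of the 7 genes was -2.61, against -0.09 over all genes tested. At 6 weeks 4 were lower and 0 higher of 7 tested, where 70.2% of all genes were called and 34.9% lower, with medians of -1.91 and -0.03. In cirrhosis 3 were higher and 2 lower than in healthy LSECs of 9 tested, where 51.8% of all genes were called, 27.1% higher and 24.7% lower, with medians of -0.41 and 0.07. From 6 weeks to cirrhosis 7 of 9 tested were higher and 0 lower, where 63.8% of all genes were called and 34.3% higher, with medians of 1.81 and 0.04. From 2 to 6 weeks 2 of 6 tested were higher and 0 lower, where 11% of all genes were called and 10.2% higher, with medians of 0.82 and 0.00. Without 6-week replicate 17 the count from 2 to 6 weeks was 4, without 2-week replicate 8 it was 3, and without healthy replicate 6 the count of lower genes in cirrhosis was 4 in place of 2. The comparisons with healthy LSECs share the same 6 healthy libraries.

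Some of the genes tested passed the filter on low counts only through the group where they were high, so their calls are no support for a direction of the 10 genes. S100a1 was below the filter with the 2-week and 6-week libraries alone and entered through the healthy or cirrhotic ones, and S100a8 and S100a9 entered only where cirrhotic libraries were compared. Without S100a1, 5 of 6 genes were lower at 2 weeks and 3 of 6 at 6 weeks, with medians of -2.56 and -1.35. Without S100a8 and S100a9, 1 of 7 was higher and 2 lower in cirrhosis than in health, with a median of -0.56, and without all 3 of them 4 of 6 were higher in cirrhosis than at 6 weeks, with a median of 1.14.

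A stricter reading counts the genes whose groups did not overlap in any library. At 2 weeks 5 of the S100 genes lay below all healthy libraries, where 30.8% of all genes tested did, and at 6 weeks 3 did, where 29.1% of all genes did. In cirrhosis 2 lay below all healthy libraries, against 17% of all genes. From 6 weeks to cirrhosis 6 were higher without overlap, against 30.8% of all genes, and from 2 to 6 weeks 1 was, against 6.48%. S100a1 is among the 5 and the 3, and S100a1, S100a8 and S100a9 are among the 6. These genes passed the filter there only through the group where they were high, so they add no support to these counts.

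**Figure D1:**
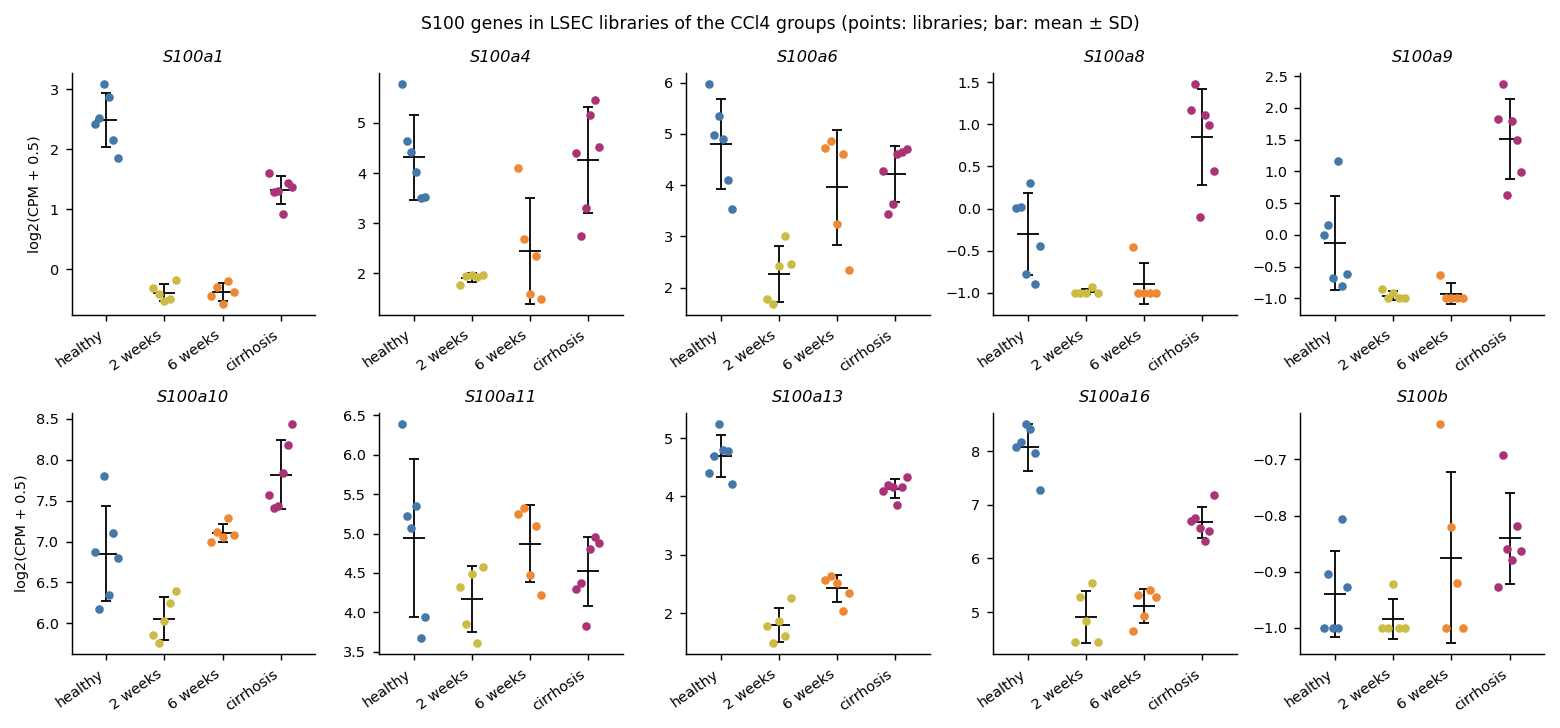
Log2(CPM + 0.5) of each S100 gene in the 22 libraries of the CCl4 model, by group, with the mean and SD as bars and a separate vertical scale for each gene. S100a1, S100a13 and S100a16 are high in healthy LSECs, low at 2 and 6 weeks and partly back in cirrhosis, while S100a8 and S100a9 are highest in cirrhosis.

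S100a1, S100a13 and S100a16 shared one profile, with a deep fall at 2 and 6 weeks and a partial return in cirrhosis. S100A1 is known as a regulator of calcium cycling and, in endothelium, of nitric oxide synthase, S100A13 carries FGF1 and interleukin-1 alpha out of cells, and S100A16 is a widely expressed EF-hand protein. S100a1 (ENSRNOG00000012410) stood at 3.13 to 7.98 CPM in healthy libraries (median 5.06). At 2 weeks its 5 libraries held 0.30, 0.25, 0.19, 0.21 and 0.38 CPM, at 6 weeks 0.23, 0.31, 0.17, 0.37 and 0.26 CPM, and in cirrhosis it ranged from 1.38 to 2.52 CPM (median 2.03). No library of the 2-week, 6-week or cirrhosis groups reached the healthy range, and the 2-week and 6-week groups overlapped. The log2 fold change of S100a1 was -4.19 ± 0.37 (SE) at 2 weeks (adjusted p = 7.39e-07, limma-voom), an 18.2-fold fall. At 6 weeks it was -4.12 ± 0.37 (adjusted p = 1.09e-06, limma-voom), and in cirrhosis -1.31 ± 0.26 (adjusted p = 0.00129, limma-voom). The rise of S100a1 from 6 weeks to cirrhosis was 7.19-fold (log2 2.85 ± 0.28, adjusted p = 1.47e-06, limma-voom). Against the 2-week and 6-week libraries S100a1 passed the filter only through the healthy or cirrhotic ones, where it was high. Its p-values there are no independent support for a direction.

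S100a16 (ENSRNOG00000012053) followed the same course at a higher read count. It held 154 to 365 CPM in healthy libraries (median 278), 21.2, 38.5, 27.9, 45.9 and 21.3 CPM at 2 weeks, 24.6, 39.2, 30.0, 41.8 and 38.2 CPM at 6 weeks, and 79.5 to 145 CPM in cirrhosis (median 98.8). The healthy, cirrhotic and intermediate libraries formed 3 ranges without overlap. The log2 fold change of S100a16 was -3.15 ± 0.26 at 2 weeks (adjusted p = 4.01e-07, limma-voom) and -2.91 ± 0.23 at 6 weeks (adjusted p = 3.31e-07, limma-voom). It was still 2.63-fold lower in cirrhosis than in health (log2 -1.40 ± 0.22, adjusted p = 0.00027, limma-voom), after a 2.97-fold rise from 6 weeks (adjusted p = 3.47e-06, limma-voom).

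S100a13 (ENSRNOG00000012393) came closest to its healthy level. Healthy libraries held 18.1 to 37.6 CPM (median 26.1), the 2-week libraries 2.91, 2.29, 3.14, 2.53 and 4.26 CPM, the 6-week libraries 5.42, 5.74, 5.22, 3.62 and 4.58 CPM, and cirrhotic libraries 13.9 to 19.7 CPM (median 17.3). The cirrhotic range overlapped with the healthy one, and the 2-week and 6-week ranges overlapped with each other. S100a13 fell 8.36-fold at 2 weeks (log2 -3.06 ± 0.24, adjusted p = 2.9e-07, limma-voom) and 4.95-fold at 6 weeks (log2 -2.31 ± 0.21, adjusted p = 1.33e-06, limma-voom). It was called higher at 6 than at 2 weeks (log2 0.80 ± 0.19, adjusted p = 0.0177, limma-voom), a call that a single fit over all CCl4 groups did not keep (adjusted p = 0.0814). S100a16 was not called there (adjusted p = 0.434, limma-voom), and S100a1 was below the filter. From 6 weeks to cirrhosis S100a13 rose 3.50-fold without overlap (log2 1.81 ± 0.14, adjusted p = 2.08e-07, limma-voom). In cirrhosis its log2 fold change from health was -0.56 ± 0.18 (adjusted p = 0.0167, limma-voom), a fold of 1.47 that missed the fold threshold, and edgeR, at a log2 fold change of -0.60, called it (adjusted p = 0.0125). It was also called without cirrhosis replicate 2 (log2 -0.59) or 6 (log2 -0.60) and without healthy replicate 1 (log2 -0.61) or 6 (log2 -0.67).

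Likeness of profile was measured as the root mean square difference of log2 CPM over the 22 libraries after centring, where 0 means the same course. S100a1 and S100a16 differed by 0.33, S100a8 and S100a9 by 0.34, S100a1 and S100a13 by 0.38 and S100a13 and S100a16 by 0.53, while the remaining pairs of the 10 genes differed by 0.68 or more. Among 10998 other expressed genes, the nearest to S100a1 were Man2b1 (0.20) and Marc2 (0.20), to S100a13 Glul (0.26) and Npepo (0.27), and to S100a16 P3h3 (0.25) and Capn5 (0.26).

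**Figure D2:**
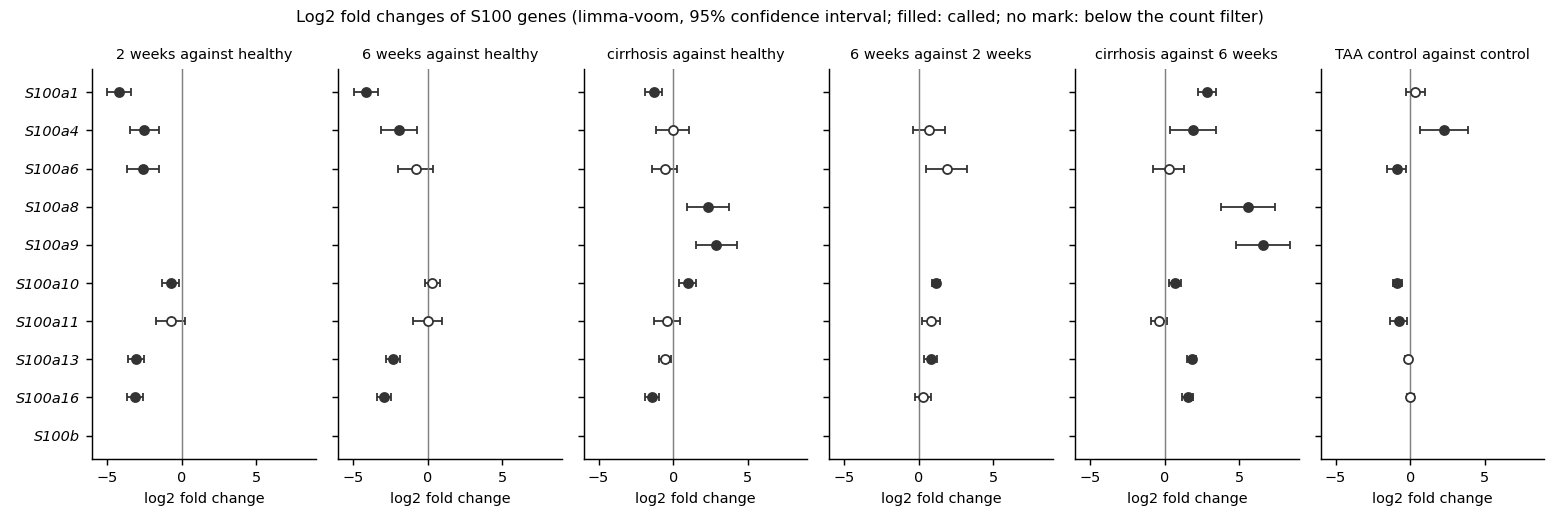
Log2 fold change of each S100 gene in the 6 comparisons, as points with 95% confidence intervals from limma-voom, filled where the gene was called and absent where the gene had too few counts to be tested. S100a1, S100a13 and S100a16 lie far below 0 at 2 and 6 weeks, and 7 genes lie above 0 with filled points from 6 weeks to cirrhosis.

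S100a8 and S100a9 form calprotectin, an alarmin stored in neutrophils and monocytes, and their RNA rose together in cirrhosis from a low level. S100a8 (ENSRNOG00000011557) held 0.04 to 0.74 CPM in healthy libraries (median 0.37) and 0.43 to 2.28 CPM in cirrhosis (median 1.58), which are 1 to 19 and 17 to 115 reads per library. S100a9 (ENSRNOG00000011483) held 0.07 to 1.75 CPM in healthy libraries (median 0.33) and 1.04 to 4.69 CPM in cirrhosis (median 2.65). Both genes had their lowest cirrhotic library inside the healthy range. S100a8 was 5.03-fold higher in cirrhosis than in health (log2 2.33 ± 0.64, adjusted p = 0.00795, limma-voom) and S100a9 7.39-fold (log2 2.89 ± 0.64, adjusted p = 0.00247, limma-voom). Both genes passed the filter only through the cirrhotic libraries, where they were high, so these p-values are no independent support for the rise. The fitted folds of such low genes depend on the prior count, and the ratio of the summed reads, 380 to 61 for S100a8 and 698 to 89 for S100a9, was 4.21 (exact 95% counting interval 3.2 to 5.61) and 5.29 (4.24 to 6.68). These intervals leave out the spread between libraries, which was wide, with 2 to 45 reads of S100a9 per healthy library. The reads of S100a9 were 1.57 to 2.41 times those of S100a8 in the 6 cirrhotic libraries, and 1, 1.2 and 2.37 times in the 3 healthy libraries with at least 10 reads of S100a8. These ratios are not corrected for transcript length. The nearest genes in profile were Elmo1 (0.41) and Cd244 (0.42) for S100a8 and Golm1 (0.51) and Tnfrsf11a (0.52) for S100a9, with each other nearer than any of these.

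At 2 and 6 weeks both genes were nearly absent. The 5 libraries of the 2-week group held 1 read of S100a8 and 3 of S100a9 in all, and the 5 of the 6-week group 8 and 5, all of them in replicate 12. The counts gave a level of S100a8 at 2 weeks that was 0.0156 of the healthy level (exact 95% counting interval 0.000389 to 0.0904) and of S100a9 that was 0.0321 of it (0.0065 to 0.097). At 6 weeks these ratios were 0.139 (0.0574 to 0.291) and 0.0595 (0.0189 to 0.144). The intervals cover counting error only and treat reads as independent molecules. Counts this low kept both genes out of the main fit, and over libraries the exact two-sided permutation tests of log2(CPM + 0.5) gave adjusted p = 0.0974 for S100a8 and 0.0974 for S100a9 at 2 weeks, and 0.162 and 0.0974 at 6 weeks, over 15 such tests of genes below the filter. Without the filter on low counts limma-voom called both genes lower, with adjusted p = 0.000135 and 0.000767 at 2 weeks and 0.00661 and 0.00186 at 6 weeks. From 6 weeks to cirrhosis the groups did not overlap, and the counts of S100a8 rose 30.3-fold (95% counting interval 15.2 to 70.7) and those of S100a9 89-fold (38 to 275), with adjusted p = 5.61e-05 and 1.26e-05 in limma-voom. Here too both genes passed the filter only through the cirrhotic libraries, which limits these p-values in the same way.

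Taken one by one, most neutrophil markers had a lower median at 2 and 6 weeks than in cirrhosis, as S100a8 and S100a9 did. Their summed level was not lower there. The median of 12 of the 14 markers was higher in cirrhosis than at both 2 and 6 weeks, without Mmp9 and Lcn2, and that of 11 was higher in cirrhosis than in health, without Csf3r, Mmp9 and Padi4. The healthy median was above those at both 2 and 6 weeks for 8 of the 14. The share of all genes with medians in these orders was not worked out, so these counts have no baseline. Several medians rest on very few reads, as in cirrhosis those of Cd177 (0.0124 CPM), Ltf (0.0232), Elane (0.0547) and Prtn3 (0.0929). The median of Csf3r, the receptor of granulocyte colony-stimulating factor, was 9.22 CPM in healthy libraries, 0.28 at 2 weeks, 0.34 at 6 weeks and 3.15 in cirrhosis. Retnlg had medians of 0.32, 0, 0 and 0.42 CPM, and Mmp8, a granule collagenase, 0.03, 0.03, 0 and 0.45 CPM. Of the markers tested, 4 of 6 were called higher and 2 lower in cirrhosis than at 6 weeks. Of all genes tested there, 63.8% were called and 34.3% called higher. Only 4 of the 14 were tested at 6 against 2 weeks, and again 4 at either stage against health. Markers tested only where cirrhotic libraries took part passed the filter through them, so their calls are no support for a rise. In cirrhosis against health 3 of the 7 tested were higher and 0 lower, where 27.1% of all genes tested were called higher and 24.7% lower. The 14 markers summed to 14.3 to 216 CPM in healthy libraries, 32.8 to 228 CPM at 2 weeks, 54.5 to 159 CPM at 6 weeks and 16.7 to 37.4 CPM in cirrhosis. Much of the sum came from Mmp9, with medians of 20.9, 52.9, 63.9 and 8.83 CPM in the healthy, 2-week, 6-week and cirrhotic libraries, and from Lcn2, with medians of 2.84, 9.31, 21.0 and 10.9 CPM. Ltf, Cd177 and Retnlg were at 0 in all 2-week libraries and Cd177 in all 6-week libraries. Macrophage and monocyte markers were low where S100a8 and S100a9 were low. Between cirrhosis and health 1 of the 11 tested was higher and 0 lower, beside the same shares of all genes. The part of these cells in the S100a8 and S100a9 values was not tested.

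**Figure D3:**
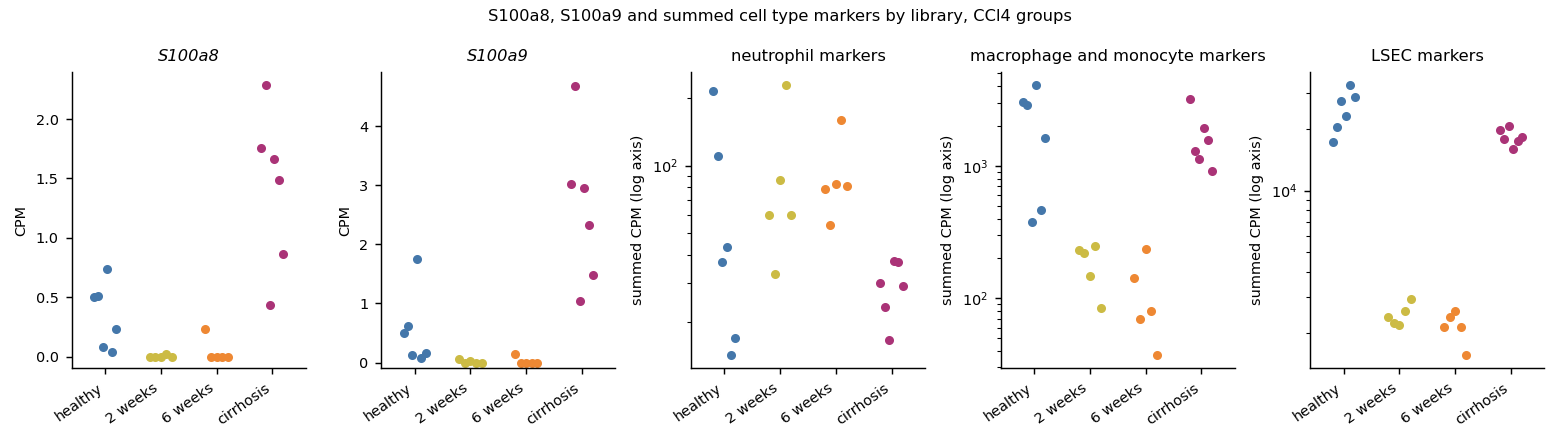
CPM of S100a8 and S100a9 on linear axes and the summed CPM of neutrophil, macrophage and monocyte, and LSEC markers on log axes, with 1 point per library in the 4 CCl4 groups. S100a8 and S100a9 lie near 0 at 2 and 6 weeks and highest in cirrhosis, while the neutrophil sums, carried by Mmp9 and Lcn2, are lower in cirrhosis (16.7 to 37.4 CPM) than at 6 weeks although 4 of the 6 markers tested were called higher there. Some of those 6 passed the filter only with the cirrhotic libraries, and 34.3% of all genes tested were called higher in that comparison.

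S100a10 and S100a11 bind annexins. S100A10, also called p11, pairs with annexin A2 at the plasma membrane and holds plasminogen and its activator there, and it no longer binds calcium. S100a10 (ENSRNOG00000023226) held 72.0 to 222 CPM in healthy libraries (median 114), 57.5, 53.5, 64.8, 75.6 and 83.7 CPM at 2 weeks, 127, 139, 132, 156 and 135 CPM at 6 weeks, and 170 to 347 CPM in cirrhosis (median 210). It thus climbed in steps that did not overlap from 2 weeks to 6 weeks to cirrhosis, with the healthy libraries spread across them. S100a10 was called lower at 2 weeks (log2 -0.77 ± 0.26, adjusted p = 0.0167, limma-voom), but not without healthy replicate 3 (log2 -0.53) or 2-week replicate 2 (adjusted p = 0.0503), nor with library size alone in place of TMM (log2 -0.35, adjusted p = 0.198). At 6 weeks its log2 fold change from health was 0.33 (adjusted p = 0.238, limma-voom), and with library size alone it was called higher (log2 0.72, adjusted p = 0.0118). It was higher in cirrhosis than in health (log2 0.98 ± 0.27, adjusted p = 0.00747, limma-voom), than at 6 weeks (log2 0.71 ± 0.17, adjusted p = 0.00247), and at 6 than at 2 weeks (log2 1.14 ± 0.12, adjusted p = 0.00165).

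S100a11, whose protein binds annexin A1 in membrane repair and vesicle traffic, was called in none of the 5 CCl4 comparisons. S100a11 (ENSRNOG00000010105) held 12.3 to 83.7 CPM in healthy libraries (median 35.1), 19.6, 13.9, 21.9, 11.7 and 23.3 CPM at 2 weeks, 37.4, 39.5, 21.8, 33.6 and 18.2 CPM at 6 weeks, and 13.7 to 30.6 CPM in cirrhosis (median 23.9). All groups overlapped, and its 95% confidence interval in cirrhosis against health ran from -1.30 to 0.49 on the log2 scale. Its difference between 6 and 2 weeks came nearest to the threshold (log2 0.83 ± 0.27, adjusted p = 0.0514, limma-voom), and edgeR (adjusted p = 0.0488) and DESeq2 (adjusted p = 0.0133) called it, as did limma-voom without 6-week replicate 17 (adjusted p = 0.0224) or 2-week replicate 8 (adjusted p = 0.0322). At 2 weeks its log2 fold change from health was -0.76 (adjusted p = 0.142, limma-voom), and DESeq2 (log2 -0.94, adjusted p = 0.0439) and limma-voom without healthy replicate 5 (log2 -1.04, adjusted p = 0.0304) called it lower. By symbol, the GRCr8 annotation lists 7 copies of S100a11 (5 pseudogenes and 2 similar genes) and 1 pseudogene of S100a10. The sequences of these copies were not compared. Counts of S100a10 and S100a11 were not whole numbers in 29 of 32 libraries each, as where a read is divided between genes. That makes them less certain than the 8 other genes, whose counts were whole in every library. Whether the copies were the cause was not tested. The nearest genes in profile were Tec (0.40) and Hmgb2 (0.41) for S100a10 and Notch2 (0.44) and Sfn (0.46) for S100a11.

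S100a4 and S100a6 lie close together and both varied widely within groups. S100A4 binds non-muscle myosin IIA and marks motile cells such as fibroblasts and leukocytes, and S100A6, or calcyclin, binds the ubiquitin ligase adaptor Cacybp. S100a4 (ENSRNOG00000011821) held 10.8 to 54.2 CPM in healthy libraries (median 18.3), 2.91, 3.35, 3.42, 3.32 and 3.38 CPM at 2 weeks, 16.6, 5.90, 2.49, 4.59 and 2.30 CPM at 6 weeks, and 6.21 to 43.6 CPM in cirrhosis (median 21.5). The 2-week libraries lay below every healthy one, and replicate 12 of the 6-week group lay within the healthy range. S100a4 fell 5.72-fold at 2 weeks (log2 -2.51 ± 0.45, adjusted p = 0.000243, limma-voom) and 3.76-fold at 6 weeks (log2 -1.91 ± 0.56, adjusted p = 0.00804, limma-voom). In cirrhosis its log2 fold change from health was -0.04 with a 95% interval of -1.14 to 1.06 (adjusted p = 0.955, limma-voom), with the opposite sign under library size alone (0.30). It was 3.78-fold higher in cirrhosis than at 6 weeks (adjusted p = 0.0256, limma-voom), but not called without 6-week replicate 15 (adjusted p = 0.0601) or 17 (adjusted p = 0.0656).

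S100a6 (ENSRNOG00000011647) held 11.03 to 62.1 CPM in healthy libraries (median 30.1), 2.91, 2.70, 4.89, 7.51 and 4.99 CPM at 2 weeks, 25.9, 28.5, 8.91, 24.0 and 4.55 CPM at 6 weeks, and 10.4 to 25.4 CPM in cirrhosis (median 21.3). The 2-week libraries lay below all healthy and cirrhotic ones, and the 6-week libraries were divided between 3 within the healthy range and 2 below it. Its fall at 2 weeks was 6.12-fold (log2 -2.61 ± 0.48, adjusted p = 0.000335, limma-voom). At 6 weeks (log2 -0.80, adjusted p = 0.204) and in cirrhosis (log2 -0.58, adjusted p = 0.225) it was not called, although without healthy replicate 6 it was called lower in cirrhosis (log2 -0.86, adjusted p = 0.0443). Between 6 and 2 weeks its log2 fold change was 1.86 ± 0.62 (adjusted p = 0.0562, limma-voom), and edgeR called it (adjusted p = 0.0174), as did DESeq2 (adjusted p = 1e-04) and limma-voom without 6-week replicate 17 (log2 2.30, adjusted p = 0.011). The genes nearest in profile were Cst7 (0.45) and Adap1 (0.45) for S100a4 and Chst2 (0.63) and Akna (0.66) for S100a6, both farther away than the neighbours of S100a1.

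Healthy replicate 1 held the highest level of S100a4, S100a6 and S100a11 among the 6 healthy libraries, with 54.2, 62.1 and 83.7 CPM. It also held the highest sums of neutrophil (216 CPM), lymphocyte (215 CPM), cholangiocyte (26.5 CPM) and mesothelial (89.2 CPM) markers among them. Without this library the counts of called genes at 2 and 6 weeks were again 6 and 4, and in cirrhosis 6 in place of 5.

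S100b, the glial member that Schwann cells and astrocytes make, was close to undetected. S100b (ENSRNOG00000001295) had 4 reads over the 6 healthy libraries, 1 over the 5 libraries at 2 weeks, 8 over the 5 at 6 weeks and 16 over the 6 in cirrhosis, at most 0.14 CPM in any CCl4 library. It never reached the filter, and between cirrhosis and health the exact two-sided permutation test gave p = 0.0584 (adjusted p = 0.175), where the smallest p possible is 0.00216. A change was not detectable at this depth. The other S100 genes in the files, S100a3, S100a5, S100a7a, S100g, S100vp and S100z, stayed at or below 0.60 CPM in every library. The nearest profiles to S100b, Zfp18 (0.14) and Ube2q1 (0.16), are those of genes that hardly varied, as S100b itself had an SD of 0.10 on the log2 scale.

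Receptors and binding partners of S100 proteins were counted from a list of 20 genes, all of which were tested. In all, 3 were higher and 11 lower than in health at 2 weeks, 4 higher and 8 lower at 6 weeks, and 10 higher and 4 lower in cirrhosis, with median log2 fold changes of -0.83, -0.32 and 0.77. These calls are 70% of the 20 genes at 2 weeks, 60% at 6 weeks and 70% in cirrhosis, beside 73.4%, 70.2% and 51.8% of all genes tested. By direction, 37.9% of all genes were lower at 2 weeks and 34.9% at 6 weeks, and in cirrhosis 27.1% were higher and 24.7% lower. The 4 largest called changes of each comparison are given, and Bsg, Tlr4, Cd36, Ager, Anxa2 and Myh9, with the other values of Il1a, Plat, Fgf1 and Cacybp, were singled out after their values were seen, as counterparts of the S100 genes described. Of the 5 receptors, 1 was higher and 1 lower than in healthy LSECs at 2 weeks and again at 6 weeks, and 3 were higher and 1 lower in cirrhosis. Alcam, an adhesion molecule reported to bind S100B, was 18.3-fold higher at 2 weeks (log2 4.20, adjusted p = 3.94e-07, limma-voom), 15.3-fold at 6 weeks and 3.28-fold in cirrhosis. Bsg, a receptor for S100A9, was lower at each of these stages (log2 -1.22, -1.43 and -1.60). Tlr4, a receptor for S100A8 and S100A9, was 2.22-fold higher in cirrhosis than in health (adjusted p = 0.0116, limma-voom) and Cd36 2.64-fold (adjusted p = 0.00782, limma-voom), while Ager, which encodes RAGE, was called in no comparison.

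Of 7 annexin and cytoskeletal partners, 5 were lower and 0 higher at 2 weeks, 1 higher and 2 lower at 6 weeks, and 3 higher and 1 lower in cirrhosis. Of all genes tested, 73.4%, 70.2% and 51.8% were called at these stages. At 6 against 2 weeks 5 of the 7 partners were higher, and 6 of the 20 genes (30%) were called, beside 11% of all genes tested. Anxa1, the partner of S100A11, was 11.5-fold higher in cirrhosis than in health (log2 3.53, adjusted p = 5.94e-05, limma-voom). Anxa2, the partner of S100A10, was 1.85-fold higher at 6 than at 2 weeks (adjusted p = 0.00443, limma-voom) and 1.60-fold higher in cirrhosis than in health (adjusted p = 0.0122), and S100a10 was called higher in the same 2 comparisons. At 6 weeks against health Anxa2 was called higher (log2 0.93, adjusted p = 0.000702) and S100a10 was not, and from 6 weeks to cirrhosis S100a10 was called and Anxa2 was not (log2 -0.20, adjusted p = 0.38). Anxa6, a membrane-binding annexin, was lower at 2 weeks (log2 -3.98) and 6 weeks (log2 -2.68) and was not called in cirrhosis (adjusted p = 0.312). Between 6 and 2 weeks the largest rises were those of Anxa1 (log2 2.22), Anxa6 (log2 1.34), Anxa5 (log2 1.25) and Anxa2 (log2 0.89). Myh9, the myosin bound by S100A4, could not be read, since its expected count ran from 0 to 1320 among healthy libraries and its fits had standard errors of 1.95 or more.

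Of 8 other partners and cargo genes, 2 were higher and 5 lower at 2 weeks, 2 higher and 5 lower at 6 weeks, and 4 higher and 2 lower in cirrhosis. The shares of all genes called at these stages were again 73.4%, 70.2% and 51.8%. Fgf1 and Il1a, the cargo of S100A13, fell with it at 2 weeks (log2 -3.32 and -2.03) and at 6 weeks (log2 -3.00 and -1.59). Reads of Fgf1 were few, at 6 to 15 per library at 2 weeks and 4 to 11 at 6 weeks, against 31 to 125 in health. The folds of Fgf1 against the 2-week and 6-week libraries therefore rest on low counts. In cirrhosis Fgf1 was 2.67-fold higher than in health (adjusted p = 0.00138, limma-voom), and Il1a was not called (adjusted p = 0.171). Plat, the tissue plasminogen activator that S100A10 binds, was lower at 2 and 6 weeks (log2 -3.09 and -2.46) and 4.64-fold higher in cirrhosis (adjusted p = 6.94e-05, limma-voom). Cacybp, the partner of S100A6, was higher at 2 weeks (log2 3.06), at 6 weeks (log2 3.08) and in cirrhosis (log2 2.10), and was 1.89-fold lower in cirrhosis than at 6 weeks (adjusted p = 0.0125, limma-voom). From 6 weeks to cirrhosis 10 of the 20 genes were higher and 2 lower (60%, beside 63.8% of all genes), led by Plat (log2 4.73), Fgf1 (log2 4.47), Anxa1 (log2 2.70) and Plau (log2 2.54), the urokinase gene.

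**Figure D4:**
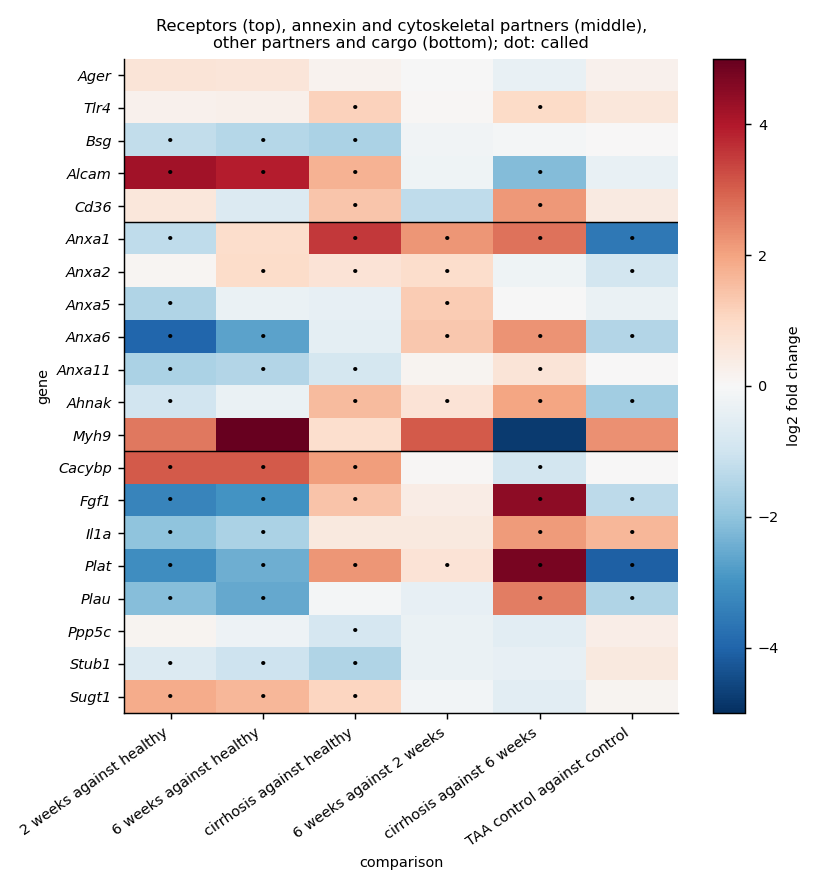
Log2 fold change of 20 genes of S100 receptors and binding partners (rows) in the 6 comparisons (columns), in red where higher and in blue where lower in the group named first, with a dot where called and a colour scale that ends at 5 in both directions. Plat, Fgf1 and Anxa6 are blue at 2 and 6 weeks and Anxa1 and Plat are red in cirrhosis, and the Myh9 row holds wide, uncalled values.

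In the TAA experiment, 1 of the 10 S100 genes was higher and 3 were lower in the group labelled TAA control than in the group labelled control, with 7 tested, where 27.6% of all genes tested were called, 12.7% higher and 14.9% lower. The median log2 fold change of the 7 genes was -0.15, against 0.03 over all genes. The count of 4 was 2 without control replicate 4 or TAA control replicate 12 or 13. S100a4 held 1.62, 2.94, 3.74, 0.63 and 1.07 CPM in the control group and 4.79, 7.47, 3.19, 16.8 and 21.2 CPM in the TAA control group. The groups overlapped in 1 library on either side, and S100a4 was 4.87-fold higher in the TAA control group (log2 2.28 ± 0.73, adjusted p = 0.0233, limma-voom). Without control replicate 4 or 5 its adjusted p was 0.0567 or 0.0599. Its highest values were those of replicates 14 and 15 of the TAA control group, the most alike of all pairs of libraries within a group. With these counted as 1 sample its log2 fold change was 2.01 (adjusted p = 0.0284, limma-voom) and the same number of S100 genes, 4, was called.

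S100a10 differed without overlap, with 352, 237, 255, 380 and 267 CPM in the control group and 165, 163, 134, 169 and 182 CPM in the TAA control group. It was 1.81-fold lower in the latter (log2 -0.86 ± 0.14, adjusted p = 0.00057, limma-voom), and 17.4% of all genes tested were likewise lower without overlap. S100a11 fell from 19.9, 15.3, 11.7, 22.9 and 17.5 CPM to 10.3, 9.04, 5.86, 13.9 and 14.4 CPM (log2 -0.77 ± 0.25, adjusted p = 0.0249, limma-voom), with overlap. S100a6 fell from 9.90, 13.8, 9.58, 10.1 and 8.11 CPM to 4.07, 4.40, 3.36, 7.82 and 11.4 CPM (log2 -0.90 ± 0.29, adjusted p = 0.0226, limma-voom), with replicates 14 and 15 of the TAA control group apart from its other 3. edgeR did not call S100a6 (adjusted p = 0.0734). Leaving out a single library took the call from S100a11 without control replicate 4 (adjusted p = 0.0543) or TAA control replicate 12 (0.0564), and from S100a6 without TAA control replicate 10 (0.0619) or 12 (0.0589), and without TAA control replicate 13 both fell short of the call.

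S100a1, S100a13 and S100a16, which had the largest falls among the genes tested at 2 and 6 weeks of CCl4, were not called between the TAA groups. S100a13 held 14.8 to 18.5 CPM in the control group and 13.3 to 17.7 CPM in the TAA control group, and its 95% interval ran from -0.37 to 0.07 on the log2 scale. S100a16 held 108 to 133 CPM and 103 to 144 CPM, with an interval of -0.24 to 0.25, and S100a1 held 1.02 to 2.14 CPM and 1.07 to 2.60 CPM, with an interval of -0.31 to 0.98. Reads of S100a8 (7 and 12 over the 5 libraries of each group), S100a9 (14 and 35) and S100b (27 and 21) were too few for the main fit, and exact two-sided permutation tests gave adjusted p = 0.823, 0.425 and 0.823.

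Of the 20 receptor and partner genes, 1 was higher and 7 lower in the TAA control group (40%, beside 27.6% of all genes). Plat (log2 -4.09, adjusted p = 2.31e-07, limma-voom) and Anxa1 (log2 -3.59, adjusted p = 2.93e-05, limma-voom) were lower, Anxa2 was 1.87-fold lower (adjusted p = 0.000468, limma-voom), Ahnak, a partner of S100A10 and annexin A2, was 3.35-fold lower (adjusted p = 6.48e-05, limma-voom), and Il1a was 3.19-fold higher (adjusted p = 0.00228, limma-voom). Marker lists differed between these groups as well, where 12.7% of all genes tested were called higher and 14.9% lower. LSEC markers summed to 21800 to 27700 CPM in the control group and 29000 to 37700 CPM in the TAA control group, with 5 of 11 called higher. Stellate cell and fibroblast markers summed to 2080 to 5180 CPM and 343 to 536 CPM, with 7 of 9 tested called lower, and hepatocyte markers to 1520 to 4140 CPM and 451 to 1100 CPM, with 6 of 8 lower. Macrophage and monocyte markers summed to 24.2 to 169 CPM and 82 to 334 CPM, lymphocyte markers to 4.03 to 29.4 CPM and 21.2 to 48.2 CPM, and neutrophil markers to 5.46 to 14.1 CPM and 11.6 to 25.2 CPM, with 1 higher and 1 lower of the 4 neutrophil markers tested. The part of these cells in the S100 values was not tested.

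**Figure D5:**
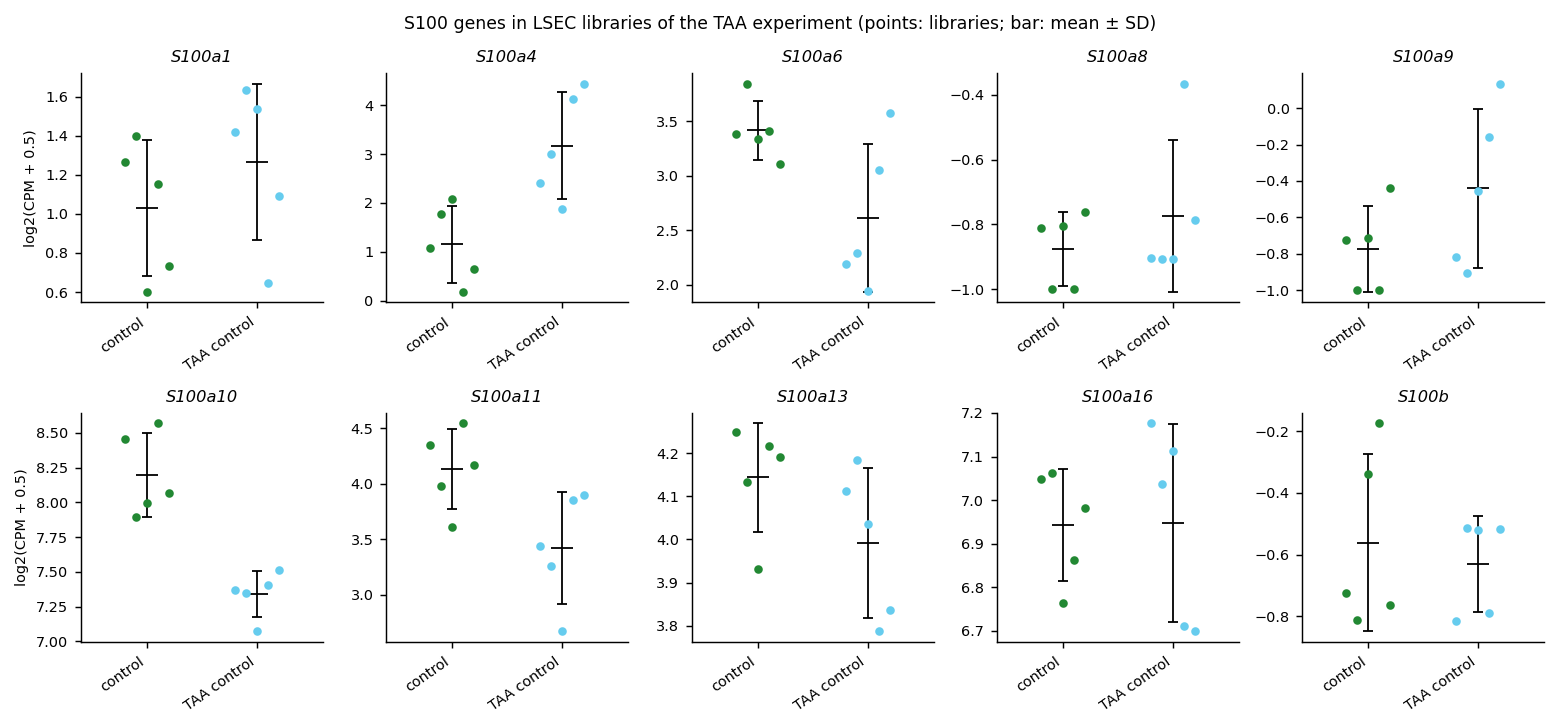
Log2(CPM + 0.5) of each S100 gene in the 10 libraries of the TAA experiment, by labelled group, with the mean and SD as bars and a separate vertical scale for each gene. S100a10 is lower in every TAA control library than in any control library, S100a4 is mostly higher there, and S100a13 and S100a16 overlap.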

How the data were processed

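RNA of rat LSECs was sequenced from strand-specific poly(A) libraries. The authors mapped the reads with STAR (build Rnor_6.0), and the RSEM estimates they deposited per library are expected counts, without normalization. FastQC, Trim Galore and limma are also named in the submitters' processing notes, with no versions. Reads that match several genes are divided by RSEM.

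Expected counts were rounded, genes filtered with filterByExpr, and the 2 groups of a comparison fitted with limma-voom and TMM factors (R 4.3.3, limma 3.58.1, edgeR 4.0.16), with Benjamini-Hochberg adjustment. The log2 CPM has a pseudocount of 0.5. Genes below the filter were tested by exact two-sided permutation of log2 CPM, a choice made after the values were seen, as were the counts without genes that passed the filter through 1 group only. Intervals of ratios of counts are exact (Clopper-Pearson, 95%).

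Groups and replicate numbers come from the labels, and the 12 to 14 weeks of the cirrhotic group from the series' design text. The S100 genes, partner and marker lists, and comparisons were chosen with earlier results of these data known. All 10 S100 genes are described. Of the partners, at most 4 per comparison were to be named, the called ones with the largest change. For each S100 gene the 2 nearest profiles are named, over the 22 CCl4 libraries and genes with a mean log2 CPM of at least 1. Alternatives were other tests (edgeR, DESeq2 1.42.0), scalings, filters, call rules, a single fit, a replicate block and each library left out. Code for the fits of 2 groups with limma-voom, edgeR and DESeq2 was tested on simulated data, and code for the other tests was not. Gene order and promoters are from GRCr8, another assembly than the reads'. Same-numbered libraries were not treated as paired. The paper describes independent LSEC isolations for each model, disease stage and the healthy group. Replicates are libraries of separate labels, and where they do not come from separate rats p-values measure technical spread. Replicates 14 and 15 of the TAA control group differed least of all pairs within a group (chi-square per degree of freedom 3.05, against 25.2 or more) and were kept as 2.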

Additional observations from a re-analysis of the deposited data

Results flagged for a closer look

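A single library stood apart from the rest of its group, by Dixon's test at its 95% limit, in 8 of the 72 groups of values looked at. Chance gives about 3.6 (1 in 20) for values with a normal spread. Where all libraries of a group but 1 held 0 reads, that library stands apart whatever its count. This was so for S100a8 and S100b at 2 weeks and S100a8 and S100a9 at 6 weeks, so 8 cannot be set against 3.6. S100a4 at 2 weeks was lowest in replicate 1, with 2.913 CPM, in a group of narrow spread. S100a8 (0.2295 CPM) and S100a9 (0.1434 CPM) at 6 weeks were found only in replicate 12, which was also the highest 6-week library for S100a4 and S100b. S100a8 in the TAA control group was highest in replicate 14, with 0.2764 CPM or 7 reads. A single read each set S100a8 in 2-week replicate 4 (0.02303 CPM) and S100b in 2-week replicate 3 (0.02777 CPM) apart. The totals of 2-week replicate 4 (36916992 counts) and control replicate 5 of the TAA experiment (32631606 counts) were higher than those of their groups.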

How the results depend on the processing

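Over the alternatives, 850 values of single S100 genes kept their direction and their side of the threshold, 15 lost and 20 gained the call, and 25 changed sign, all 25 of them uncalled. The number of genes called between 6 and 2 weeks, 2, was 4 with edgeR, 4 with DESeq2, 4 with unadjusted p-values and 1 with a single fit over the CCl4 groups, and ran from 2 to 4 with 1 library left out (4 without 6-week replicate 17). The 4 calls of the TAA experiment ran from 2 to 4 with 1 library left out, with 2 without control replicate 4 or TAA control replicate 12 or 13. Total counts in the other 4 comparisons stayed within 1.5 times, but the 2 lower genes in cirrhosis were 3 with edgeR and up to 4 with 1 library left out (4 without healthy replicate 6). S100a11 at 6 weeks against health changed sign with edgeR (-0.243), DESeq2 (-0.21), a filter of 1 CPM (-0.00139), a single fit (-0.0596) and with a library left out (-0.269 to 0.307). S100a4 in cirrhosis against health changed sign with library size alone (0.298), a filter of 1 CPM (0.0601) and with a library left out (-0.289 to 0.268). S100a6 in cirrhosis against 6 weeks changed sign without 6-week replicate 17 (-0.168; range over libraries -0.168 to 0.49). S100a16 between the TAA groups changed sign with DESeq2 (-0.00482), its size factors (-0.0154), library size alone (-0.0333), a filter of 1 CPM (-0.0094) and with a library left out (-0.0526 to 0.0688). The cause was not tested.

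Library size alone moved the median log2 fold change of all genes by 0.41 at 2 weeks, 0.40 at 6 weeks and 0.35 in cirrhosis, and the share of higher genes among those called from 50.3% to 60.9% at 6 weeks and from 52.2% to 71.3% in cirrhosis. The replicate numbers were not taken to pair libraries, with correlations of the deviations of -0.242 to 0.288 in cirrhosis and health and 0 of 6 libraries closest to their own number, and of 0.0297 to 0.198 in the 4 shared numbers at 2 weeks and health, with 2 of 4 closest to their own, so that not every pair was over 0.1. With the replicate block 7 genes were lower at 2 weeks, S100a11 included (log2 -1.39, adjusted p = 0.00206), and 5 were called in cirrhosis. Depth limited S100a8, S100a9 and S100b.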
